A study of Mus musculus with 4 samples.

Results

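Transcript levels of 10 genes of bone morphogenetic protein (BMP) signalling were followed in 4 RNA sequencing libraries of mouse 3T3 cells: the ligand gene Bmp4, the receptor genes Bmpr1a and Bmpr2, the SMAD genes Smad1, Smad5, Smad6 and Smad7, and the target genes Id1, Id2 and Id3. The genes were taken as a named list, drawn up with earlier results of these data known, and all 10 were found among the 12208 genes measured. The cells, labelled as a pre-osteoblast line, received either control treatment or recombinant LTα1β2, and were harvested at 24 h or 48 h. Each of the 4 groups was 1 library, and the labels give no dose and no further description of the control. The name 3T3 also covers fibroblast lines, and the labels do not say more. Lymphotoxin α1β2 belongs to the TNF superfamily; its receptor, encoded by Ltbr, activates NF-κB. In these libraries the NF-κB gene Nfkb2 was at 142 and 144 CPM without it and at 320 and 270 CPM with it.

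BMPs are secreted ligands of the TGF-β superfamily. They bring together type I receptors such as BMPR1A and type II receptors such as BMPR2, which phosphorylate SMAD1, SMAD5 and SMAD9; these enter the nucleus with SMAD4. Among the genes that then respond are the Id genes, whose products bind basic helix-loop-helix factors and keep them off DNA, and Smad6 and Smad7, whose products restrain the receptors. In bone-forming cells the pathway is known for driving the osteoblast programme of Runx2 and Sp7.

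Levels are given as CPM, counts per 1000000 reads over the listed genes. Between 11355974 and 15995777 reads per library could be recovered from the CPM values, and 95% intervals of a ratio of 2 libraries (exact, conditional binomial) come from these reads and cover counting error only. Osteoblast-lineage markers were present: Runx2 was at 67.5 to 126 CPM, Sp7 at 7.93 to 35.1 and Col1a1 at 7356 to 15684. All 3 were lower in both treated libraries than in both controls, as were 21.3% of all tested genes. Spp1 was at 1234 CPM in the 24 h control and 1525 in the 48 h control, against 1430 and 2210 CPM in the treated libraries. Its groups overlapped, but at each time Spp1 was higher in the treated library. The mature marker Bglap was at 1.13 to 1.33 CPM throughout. Alpl was not analysed here. These 5 markers summed to 17069.6 and 15884 CPM in the controls and to 11570.1 and 9642 CPM after LTα1β2, a sum that is mostly Col1a1. Of 20 markers of other cell types 6 had a value. The macrophage markers Cd68 and Csf1r summed to 2.99 to 3.59 CPM, Des was at 3.74 to 7.25, and Fabp4 at 1.45 to 2.40 in 3 libraries and 6.69 in the treated 48 h library; the chondrocyte markers Col2a1 and Sox9 summed to 95.3 to 147 CPM in control and 64.3 to 113 in treated cells. Their part in the results was not tested. In bulk RNA, fewer cells of a type and less RNA per cell cannot be told apart. The treated 48 h library stood apart in the length of its transcripts: its read-weighted median was 3127 bases, against 3588 to 3659 in the other libraries. Ratios of the members at 48 h are therefore also given with each library's trend on transcript length removed.

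The ligand gene was the member that changed most. Bmp4 (ENSMUSG00000021835.15) encodes BMP4, an osteoinductive ligand, and lies on the minus strand of chromosome 14 (46383520 to 46390669; GRCm38, GENCODE M21; the build behind the deposited values is not known). The controls held 121 CPM at 24 h and 108 CPM at 48 h, and the treated libraries 58.3 CPM and 48.3 CPM. Both treated libraries lay far below both controls. The ratio to control was 0.484 at 24 h (0.446 to 0.524) and 0.448 at 48 h (0.406 to 0.495), and with the length trend removed the log2 ratios were -1.06 and -1.21. Among the 12160 genes tested, 0.428% had a lower ratio at 24 h and 1.00% at 48 h. The log2 ratio at 48 h minus that at 24 h was -0.11, with a counting interval from -0.29 to 0.07.

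In the additive fit of time and treatment (limma on log2(CPM + 1), Benjamini-Hochberg over all tested genes), Bmp4 fell, with a log2 fold of -1.09 ± 0.17 (SE; adjusted p = 4.2e-08). Of the 10 members 1 fell and 0 rose at the threshold of 0.05, against 2.27% of all tested genes called lower and 2.92% called higher. This fit treats the 2 times as repeats of the treatment, has 1 residual degree of freedom and gave each gene the spread typical of its level. Without the 24 h control or without the 48 h control, in fits run with no time term, Bmp4 did not pass (limma log2 folds of -1.01 and -1.17, adjusted p = 0.331 and 0.12); 0 members did, and 0.0658% and 0.0493% of all genes were called lower. Bmp4 alone of the members was called under each of the 11 alternatives that kept every library. The share of all genes called lower was 0.691% with median-of-ratios rescaling, 1.83% with the length trend removed, 0.0905% with no time term and 0.206% with the prior degrees of freedom of the rescaled fit. It was 2.23% and 2.35% with pseudocounts of 0.25 and 5, 2.27% with no filter, 2.43% at a mean of at least 5 CPM, 2.38% with no trend, 2.23% with a robust prior and 2.13% with limma voom. By size alone, Bmp4 was the only member at least 2-fold lower at 24 h, where 0.551% of genes were (0.666% were 2-fold higher), and at 48 h, where 1.63% were (2.65% higher). At 1.5-fold Bmpr2 joined it at 48 h, where 8.68% of genes were lower and 9.05% higher.

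**Figure D1:**
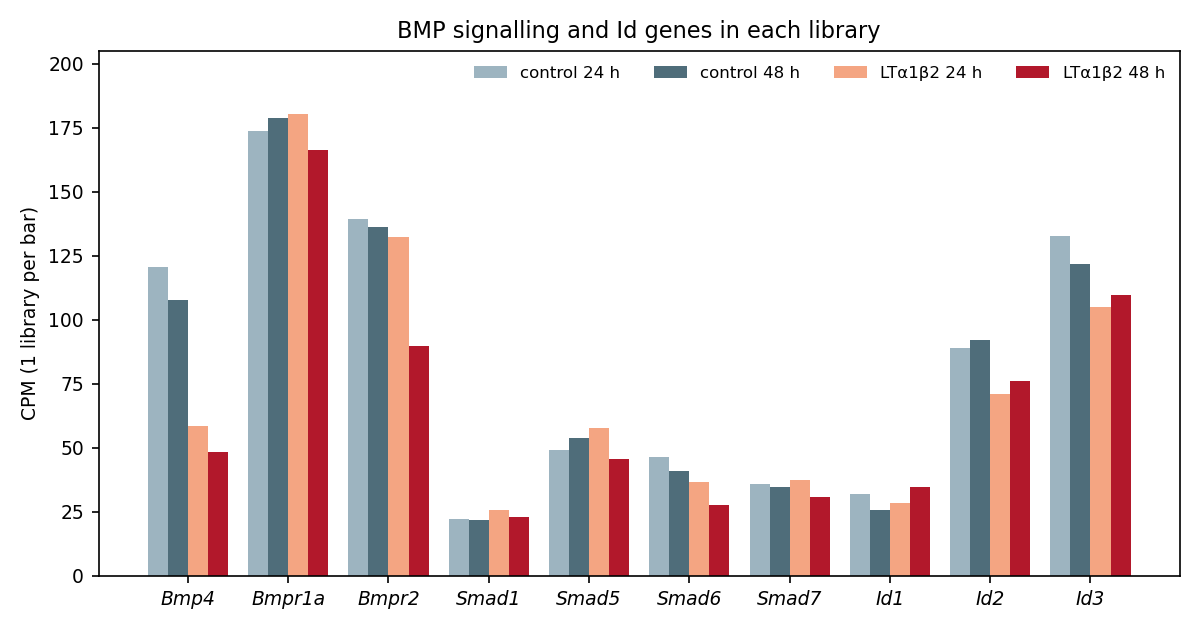
CPM of each member (vertical axis, from 0) in the 4 libraries, 1 bar per library. Bmp4 reads 121 and 108 CPM in the controls, 58.3 and 48.3 CPM after LTα1β2; Bmpr1a lies between 166 and 180 CPM throughout.

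The letters before the RefSeq start of 3 of the 5 members that were lower in both treated libraries are shown. These have at least part of their window outside annotated exons. Proximal promoters are where SMAD complexes and basic helix-loop-helix factors could bind, but no binding was measured. The sequences are RefSeq's (GRCm38.p6), 5′ to 3′ on the strand of the gene, and end at the base before the RefSeq transcription start. For Id2 only the 89 bases that lie outside annotated exons are printed, so they end earlier. That Id2 stretch lies inside the Id2 gene as GENCODE M21 places it (25093799 to 25097140), past the start given there. It is therefore not upstream of every annotated start. Capitals mark GGCGCC and GGAGCC, GC-rich letters bound by BMP-activated SMADs, and CANNTG, the E-box of basic helix-loop-helix factors, each searched on both strands.
Bmp4 (chr14:46390670-46390919, minus strand): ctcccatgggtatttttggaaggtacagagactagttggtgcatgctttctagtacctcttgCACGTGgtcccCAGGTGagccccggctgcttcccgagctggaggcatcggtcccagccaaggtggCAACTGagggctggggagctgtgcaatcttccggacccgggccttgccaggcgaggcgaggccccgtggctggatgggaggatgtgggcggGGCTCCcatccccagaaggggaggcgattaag
Smad6 (chr9:64022060-64022309, minus strand): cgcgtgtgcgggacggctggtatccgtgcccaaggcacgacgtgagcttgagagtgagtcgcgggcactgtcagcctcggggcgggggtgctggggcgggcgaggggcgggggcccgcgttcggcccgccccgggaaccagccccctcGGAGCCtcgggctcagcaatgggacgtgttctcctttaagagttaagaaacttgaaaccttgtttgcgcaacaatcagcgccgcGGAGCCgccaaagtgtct
Id2 (chr12:25096254-25096342, minus strand): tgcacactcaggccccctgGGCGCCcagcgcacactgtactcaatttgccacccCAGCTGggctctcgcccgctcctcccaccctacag

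The Bmp4 window held 3 E-boxes, beginning 188, 177 and 123 bases before the start, and 1 reversed GGAGCC, beginning 32 bases before it. The Smad6 window held GGAGCC at 2 places, beginning 102 and 18 bases before the start, and no E-box. The Id2 stretch held GGCGCC, beginning 231 bases before the start, and 1 E-box, beginning at 196. Such letters are common: of 32851 upstream windows of 250 bases, 9.59% held GGCGCC, 26.0% GGAGCC and 66.2% CANNTG. The letters GTCTG, the only form of the SMAD-binding element searched for, stood in 42.2% of all windows and in none of these 3. Shorter forms of that element were not searched for, so their absence is not shown. RefSeq windows were matched for 8 of the 10 members. The searched form of the SMAD-binding element stood at 2 places in the window of Id3, also lower in both treated libraries, and in 1 window of Smad5. The letters GGCGCC stood in windows of Bmpr2, Bmpr1a and Smad5. GGAGCC stood in windows of Id3 and Smad5 and in the unprinted part of the Id2 window. The Smad1 window held none of these. Matches were therefore not limited to members that were lower. The windows shown are GC-rich (66.8% for Smad6 and 63.2% for Bmp4, against a median of 52.4% over all windows), and a match is only a match of letters.

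Receptor transcripts showed no change that passed the test. Bmpr1a, for the type I receptor (chromosome 14, 34410734 to 34503341, minus strand), at 24 h and 48 h was at 174 and 179 CPM in the controls and, after LTα1β2, at 180 and 166 CPM. The controls lay between the treated libraries. The log2 ratio at 48 h was -0.10, or 0.15 with the length trend removed, and the additive log2 fold was -0.02 ± 0.17 (limma, adjusted p = 0.972). Bmpr2, for the type II receptor (chromosome 1, 59763400 to 59879014, plus strand), was at 139 and 136 CPM in control and at 132 CPM in treated cells at 24 h, but at 89.6 CPM in treated cells at 48 h. Only the treated 48 h library was clearly low, with a ratio to control of 0.658 (0.609 to 0.711), against 0.951 at 24 h (0.895 to 1.01). The 48 h log2 ratio of -0.60 became -0.17 with the length trend removed. The longest Bmpr2 transcript has 12899 bases, the longest of the 10 genes, and the 500 tested genes nearest to it in length had a median of -0.39. In the additive fit Bmpr2 had a log2 fold of -0.34 ± 0.17 (limma, adjusted p = 0.299).

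The receptor-activated SMAD genes likewise gave 0 calls of 2. Smad1 (chromosome 8, 79338395 to 79399518, minus strand) was at 22.0 and 21.6 CPM in the controls and, after LTα1β2, at 25.8 and 23.0 CPM, the only member with both treated libraries above both controls. Its ratios were 1.17 at 24 h (1.01 to 1.36) and 1.06 at 48 h (0.896 to 1.26). The log2 ratio at 48 h was 0.09, or 0.21 with the length trend removed, and the additive log2 fold was 0.15 ± 0.18 (limma, adjusted p = 0.773). Smad5 (chromosome 13, 56703010 to 56742377, plus strand) was at 49.0 and 53.8 CPM in the controls and, after LTα1β2, at 57.6 and 45.7 CPM, so that the treated libraries lay on either side of the controls. Its ratio was 1.17 at 24 h (1.07 to 1.30) and 0.849 at 48 h (0.757 to 0.952), the log2 ratio at 48 h turning from -0.24 to 0.05 with the length trend removed. The additive log2 fold of Smad5 was 0.00 ± 0.17 (limma, adjusted p = 0.997).

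Of the inhibitory SMAD genes 0 of 2 passed. Smad6 was below control at both times, and Smad7 at 48 h only within counting error (ratio of 0.889, 0.771 to 1.02). Smad6, whose product acts mainly on the BMP branch (chromosome 9, 63953076 to 64022059, minus strand), was at 46.3 and 40.8 CPM in the controls and, after LTα1β2, at 36.4 and 27.5 CPM. The groups did not overlap, and the ratios were 0.786 (0.703 to 0.880) at 24 h and 0.673 (0.583 to 0.775) at 48 h. Removing the length trend left log2 ratios of -0.36 and -0.52. The additive log2 fold of -0.45 ± 0.17 did not pass (limma, adjusted p = 0.123; unadjusted p = 0.0102). Smad7, whose product inhibits both the BMP and TGF-β branches (chromosome 18, 75367529 to 75395935, plus strand), was at 35.7 and 34.7 CPM in the controls and, after LTα1β2, at 37.4 and 30.8 CPM. Its treated libraries lay on either side of the controls. The log2 ratio at 48 h was -0.17, or -0.02 with the length trend removed, and the additive log2 fold was -0.05 ± 0.17 (limma, adjusted p = 0.94). The difference between Smad6 and Smad7 was not tested.

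**Figure D2:**
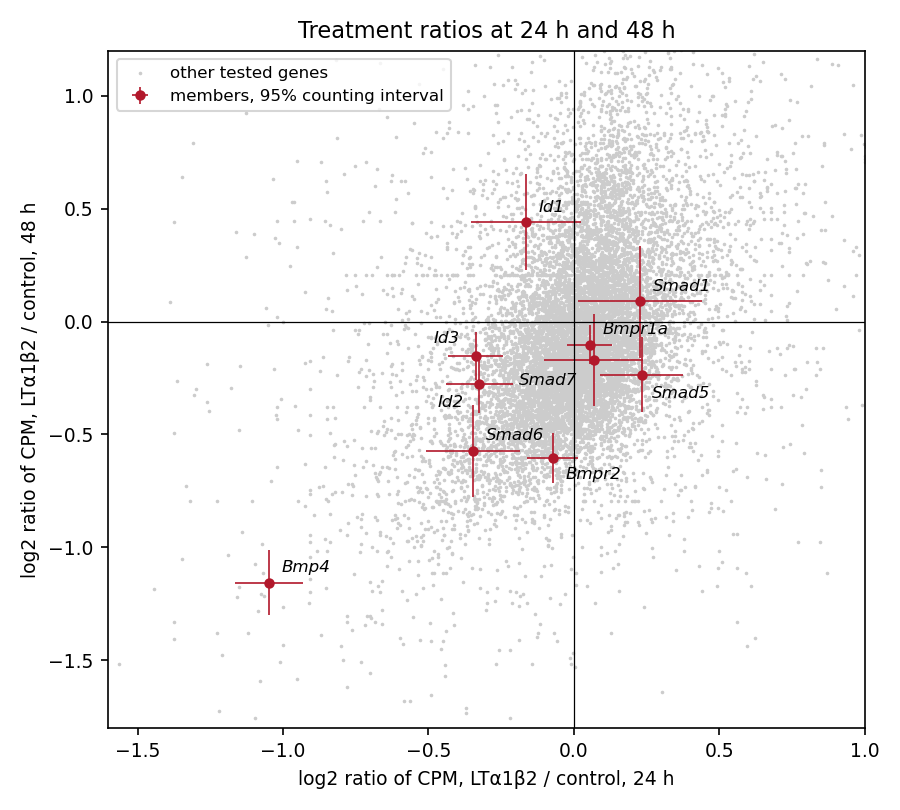
Log2 ratio of CPM, treated over control, at 24 h (horizontal) against 48 h (vertical); red points are the 10 members with 95% counting intervals, grey points the other tested genes, of which some lie outside the axes. Of the members Bmp4 lies farthest to the lower left (-1.05, -1.16), Bmpr2 (-0.07, -0.60), Smad6, Id2 and Id3 lie below 0 at both times, and Id1 lies at -0.17 and 0.44.

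Of the Id genes 0 of 3 passed. Id2 and Id3 were below control at both times, and Id1 at 24 h only within counting error. Id2 (chromosome 12, 25093799 to 25097140, minus strand) was at 89.0 and 92.1 CPM in the controls and, after LTα1β2, at 71.1 and 76.0 CPM, with no overlap. Its ratios were 0.798 (0.737 to 0.865) at 24 h and 0.825 (0.755 to 0.901) at 48 h. Id3 (chromosome 4, 136143497 to 136145755, plus strand) was at 132 and 122 CPM in the controls and, after LTα1β2, at 105 and 109 CPM, also with no overlap, at ratios of 0.791 (0.741 to 0.845) and 0.900 (0.835 to 0.970). With the length trend removed, the log2 ratios were -0.34 and -0.35 for Id2 and -0.37 and -0.41 for Id3, so that Id3, with a transcript of 1278 bases, was then as low at 48 h as at 24 h. The additive log2 folds were -0.30 ± 0.17 for Id2 and -0.24 ± 0.17 for Id3 (limma, adjusted p = 0.39 and 0.528). Without the treated 48 h library, in a fit with no time term whose spread is the difference between the controls, both passed (limma log2 folds of -0.35 and -0.27, adjusted p = 0.011 and 0.0466). Without the treated 24 h library they passed too (-0.25 and -0.21, adjusted p = 0.0275 and 0.0481), as did Bmpr2 and Smad6. Of all tested genes, 3.04% were called lower in the first of these fits and 25.2% in the second.

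Id1 lies on chromosome 2 (152736251 to 152737410, plus strand) and was at 31.9 and 25.5 CPM in the controls and, after LTα1β2, at 28.5 and 34.6 CPM. The groups overlapped: the treated 48 h library was the highest and the 48 h control the lowest. The ratio to control was 0.892 at 24 h (0.783 to 1.02) and 1.36 at 48 h (1.17 to 1.57). Its log2 ratio at 48 h was 0.44 as deposited and 0.13 with the length trend removed, and the 500 tested genes nearest to its 1160 bases had a median of 0.29. The additive log2 fold was 0.13 ± 0.18 (limma, adjusted p = 0.80). The fourth family member, Id4, was at 135 and 139 CPM in the controls and, after LTα1β2, at 139 and 159 CPM.

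**Figure D3:**
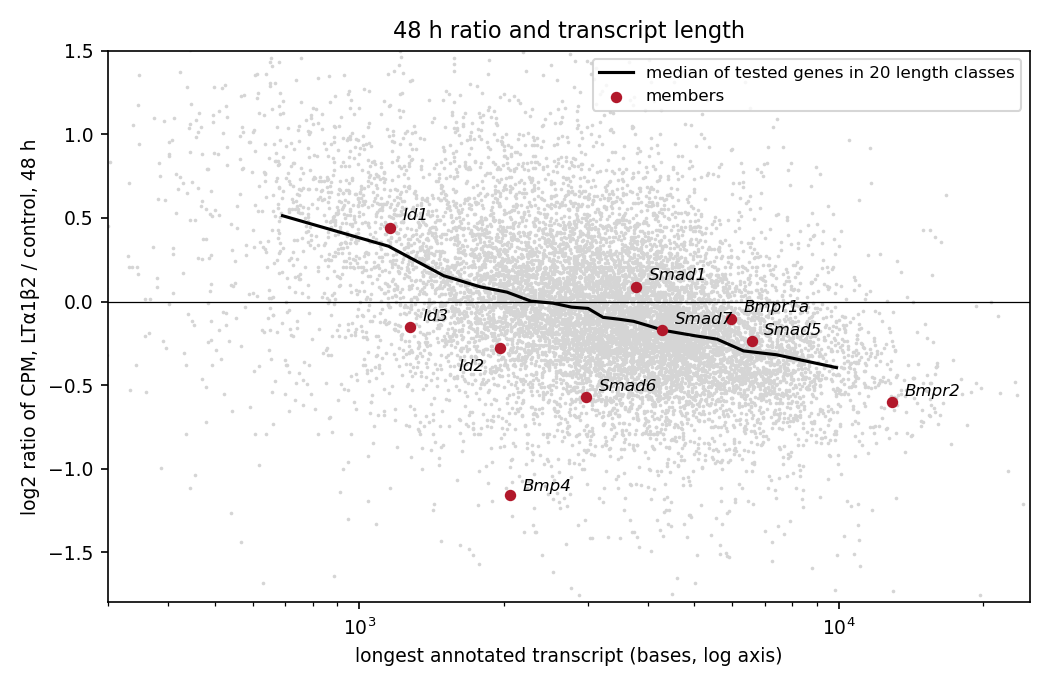
Log2 ratio of CPM, treated over control, at 48 h (vertical) against the longest annotated transcript (horizontal, log axis) for the members (red) and the other tested genes (grey), with the median of 20 length classes as a line. The ratio declines with length. Bmp4, Smad6, Id2 and Id3 lie below the line. Id1, at 0.44, is above the median of 0.29 of the 500 tested genes nearest to it in length. Bmpr2, at -0.60, is below the median of -0.39 of the 500 tested genes nearest to it in length.

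As a set, 5 members (Bmp4, Bmpr2, Smad6, Id2 and Id3) had both treated libraries below both controls and 1 (Smad1) had both above, where 21.3% and 20.8% of all tested genes did. The median log2 ratio of the 10 members was -0.12 at 24 h and -0.20 at 48 h, beside 0.02 and -0.10 over all tested genes. With the length trend removed, the 48 h medians were -0.09 and -0.01. At 48 h 8 of 10 members were below control as deposited, where 59.3% of all tested genes were, and 6 of 10 with the length trend removed, where 51.3% were. Bmpr1a and Smad5 were then above control.

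Per length of transcript, in CPM per kb averaged over the 4 libraries, Id3 was the most abundant member at 91.6 (range 82.0 to 104), followed by Id2 at 41.7 (36.1 to 46.8) and Bmp4 at 40.6 (23.4 to 58.4). Bmpr1a was at 29.3 (27.9 to 30.2), Id1 at 26.0 (22.0 to 29.8), Smad6 at 12.7 (9.25 to 15.6) and Bmpr2 at 9.64 (6.95 to 10.8). Smad7 at 8.10 (7.20 to 8.75), Smad5 at 7.83 (6.94 to 8.75) and Smad1 at 6.12 (5.72 to 6.82) were the lowest. Neighbours in this order overlapped in range, except Id3 and Id2, Id1 and Smad6, and Smad5 and Smad1. The place of Bmp4 changed with treatment: in control it stood at 58.4 and 52.2 CPM per kb, above Id2 at 45.2 and 46.8, and in treated cells at 28.3 and 23.4, below Bmpr1a at 30.2 and 27.9.

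From 24 h to 48 h 0 of 10 changed 2-fold in control, where 0.214% of genes were higher and 0.411% lower, and 0 of 10 in treated cells, where 1.64% were higher and 1.56% lower. In control the ratios of 48 h to 24 h ran from 0.798 (0.693 to 0.918) for Id1 to 1.10 (0.991 to 1.22) for Smad5, with Bmp4 at 0.894 (0.834 to 0.958). In treated cells they ran from 0.677 (0.627 to 0.730) for Bmpr2 to 1.21 (1.06 to 1.40) for Id1. The median log2 ratio of all tested genes in treated cells was -0.14 and became 0.00 with median-of-ratios rescaling, which gave -0.43 for Bmpr2 and 0.42 for Id1. With the length trend removed these were -0.04 and -0.02. The comparisons over time share libraries with those of treatment.

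Other genes of the pathway were read from a list of 63, of which 41 had a value here and all 41 were tested; the rest, among them Bmp2, Bmp6, Bmp7 and Bmpr1b, were not analysed here. In the additive fit 8 fell and 0 rose (limma), against 2.27% of all tested genes called lower and 2.92% called higher. The median log2 ratio was -0.16 at 24 h and -0.29 at 48 h, the latter -0.15 with the length trend removed. All 8 were listed as extracellular antagonists or as target genes.

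Of 9 extracellular antagonists and modulators 3 fell. Nog, for the BMP-trapping protein noggin, was at 4.94 and 3.44 CPM in the controls and, after LTα1β2, at 2.14 and 1.23 CPM (ratios of 0.432, 0.277 to 0.660, and 0.359, 0.182 to 0.666). Chrd, for chordin, which also binds BMPs, was at 16.2 and 14.5 CPM in the controls and, after LTα1β2, at 7.87 and 8.89 CPM. Chrdl1, for a chordin-like antagonist, was at 533 and 604 CPM in the controls and, after LTα1β2, at 416 and 329 CPM. Each had both treated libraries below both controls, as had 22 of the 41 listed pathway genes and 21.3% of all tested genes. Both treated libraries lay above both controls for 4 of the 41 and for 20.8% of all tested genes. The additive log2 folds of Nog, Chrd and Chrdl1 were -0.96 ± 0.23, -0.80 ± 0.19 and -0.62 ± 0.18 (limma, adjusted p = 0.00192, 0.00199 and 0.0156). The BMP modulator genes Bmper and Fst did not pass (log2 folds of -0.61 and -0.42, limma adjusted p = 0.0631 and 0.143). Grem1, for the antagonist gremlin, did not pass either and was above control: it was at 49.5 and 53.5 CPM in the controls and, after LTα1β2, at 69.5 and 71.9 CPM, with a log2 fold of 0.45 ± 0.17 (limma, adjusted p = 0.106). With the length trend removed Grem1 passed as higher (limma log2 fold of 0.51, adjusted p = 0.0257) and Fst as lower (-0.41, adjusted p = 0.045), while Chrd did not pass (-0.73, adjusted p = 0.056).

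Of 8 tested genes listed as targets 5 fell, among them Runx2 and Sp7, also read above as osteoblast-lineage markers. Sp7, for the osteoblast factor osterix, was at 35.1 and 30.8 CPM in the controls and, after LTα1β2, at 12.8 and 7.93 CPM (limma log2 fold of -1.61 ± 0.18, adjusted p = 1.26e-15). Atoh8, for a basic helix-loop-helix factor induced by BMP signals, was at 60.0 and 49.4 CPM in the controls and, after LTα1β2, at 37.3 and 27.1 CPM (-0.76 ± 0.17, limma adjusted p = 0.000912). Zfp423, for a zinc-finger partner of SMADs, was at 24.8 and 27.3 CPM in the controls and, after LTα1β2, at 18.6 and 11.2 CPM. Dlx5, for a homeobox factor of bone, was at 59.3 and 63.4 CPM in the controls and, after LTα1β2, at 43.4 and 36.5 CPM, and Runx2 at 116 and 126 CPM in the controls and, after LTα1β2, at 91.5 and 67.5 CPM. The additive log2 folds of these 3 were -0.81, -0.61 and -0.61 (limma, adjusted p = 0.000742, 0.0123 and 0.0102). The homeobox genes Msx1 and Msx2, with Id4, did not pass (log2 folds of -0.18, -0.12 and 0.12; limma adjusted p = 0.764, 0.866 and 0.813). With the length trend removed Zfp423 did not pass (limma log2 fold of -0.72, adjusted p = 0.0526), and the log2 ratio of Runx2 at 48 h was -0.62 in place of -0.89. With median-of-ratios rescaling only Sp7 and Atoh8 of the 8 called pathway genes passed. The log2 folds of the other 6 in that fit, which had 9.86 prior degrees of freedom, were -0.93 for Nog, -0.77 for Chrd, -0.77 for Zfp423, -0.58 for Chrdl1, -0.58 for Runx2 and -0.57 for Dlx5. In the fits without the 24 h control, or without the 48 h control, only Sp7 passed.

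**Figure D4:**
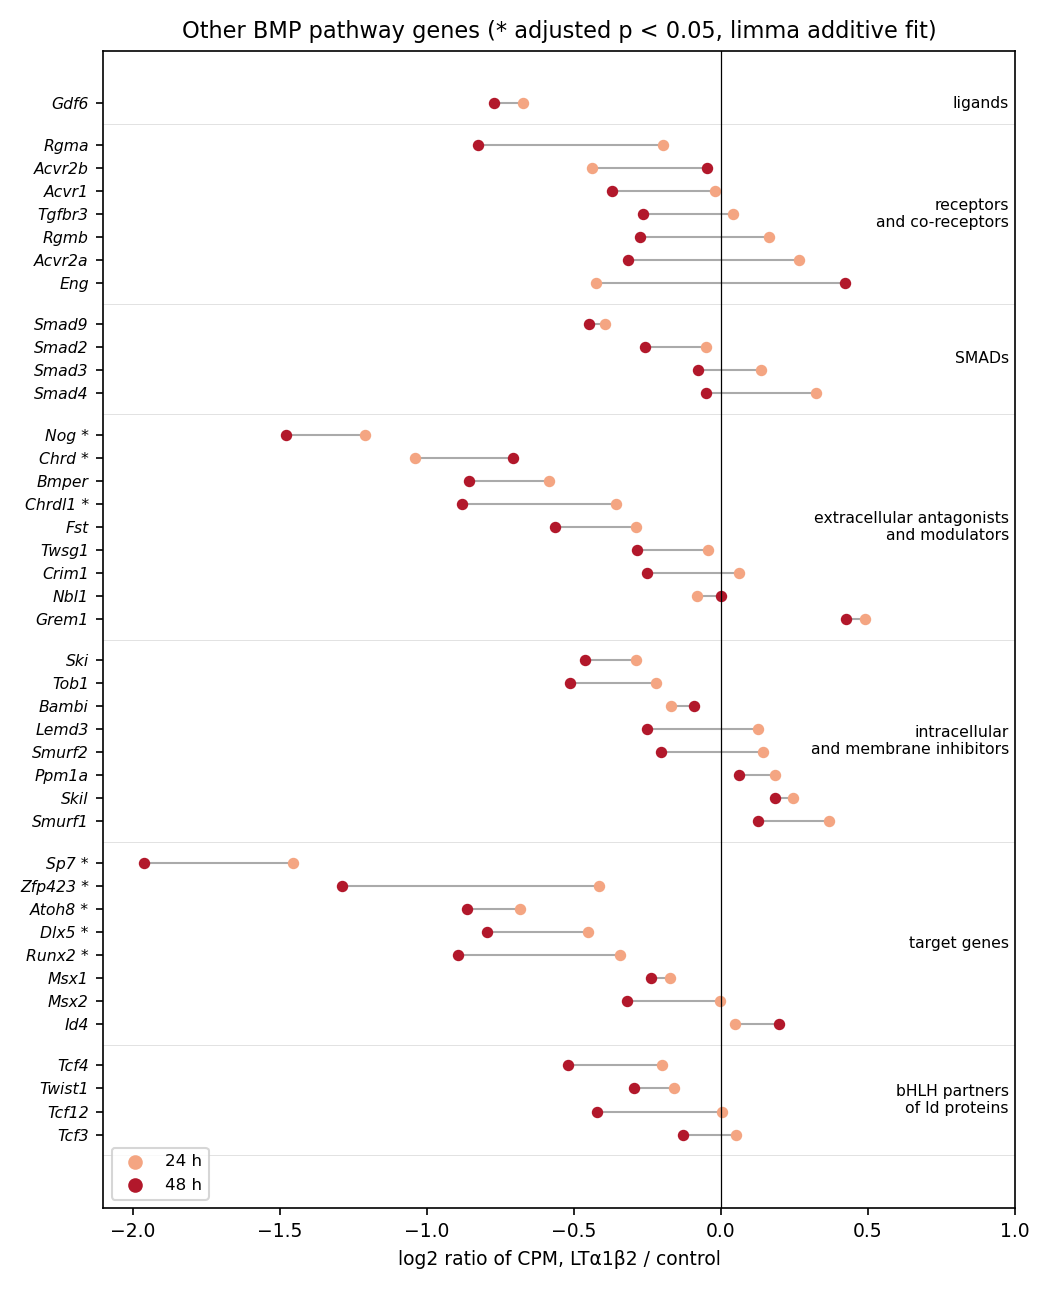
Log2 ratio of CPM, treated over control, at 24 h (light points) and 48 h (dark points) for the 41 other pathway genes by class; an asterisk marks the 8 genes past the additive limma fit. Nog, Chrd, Chrdl1, Sp7, Zfp423, Atoh8, Dlx5 and Runx2 lie below 0 at both times, and Grem1 above 0.

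The other classes gave 0 calls (limma). Among 7 receptors and co-receptors, Rgma, a BMP co-receptor gene, had an additive log2 fold of -0.49 (adjusted p = 0.0997), the type I receptor gene Acvr1 -0.19 (adjusted p = 0.657) and the type II receptor gene Acvr2b -0.14 (adjusted p = 0.852). Among 4 SMAD genes, Smad2, for a TGF-β-activated SMAD, had a log2 fold of -0.15 (adjusted p = 0.758). Smad9, for the third BMP-activated SMAD, was at 38.5 and 32.2 CPM in the controls and, after LTα1β2, at 29.3 and 23.6 CPM (-0.41, adjusted p = 0.189). The common partner gene Smad4 was at 79.6 and 79.9 CPM in the controls and, after LTα1β2, at 99.6 and 77.1 CPM (0.13, adjusted p = 0.788). Of 8 intracellular and membrane inhibitors Ski and Tob1 had log2 folds of -0.37 and -0.36 and Smurf1, for a ubiquitin ligase of SMADs, 0.25 (adjusted p = 0.226, 0.249 and 0.529). The only other ligand gene with a value, Gdf6, was at 3.94 and 5.12 CPM in the controls and, after LTα1β2, at 2.47 and 2.99 CPM (-0.56, adjusted p = 0.13). Of 4 genes for basic helix-loop-helix partners of Id proteins, Tcf4 had a log2 fold of -0.36, Twist1 -0.22 and Tcf12 -0.21 (adjusted p = 0.249, 0.579 and 0.619).

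Over the 4 libraries, the 5 genes whose log2(CPM + 1) profile lay nearest to that of Bmp4, by Euclidean distance after removing each gene's mean and among 9144 genes, were Thbs1, Auts2, Cspg4, Fgfr3 and Col11a1, at distances of 0.11 to 0.25. Thbs1, for the matrix glycoprotein thrombospondin 1, was at ratios of 0.50 and 0.416 to control, and Fgfr3, for a fibroblast growth factor receptor, at 0.59 and 0.388. Those nearest to Id1 were Egln2, Yju2, Acy1, Ccdc9 and Cltb, at distances of 0.04 to 0.09. Egln2, for a prolyl hydroxylase, was at ratios of 0.893 and 1.31. These lists describe 4 libraries and are no test.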

How the data were processed

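Total RNA was isolated with RNAiso Plus and made into libraries with a strand-keeping kit, per the labels' protocols, and sequenced as read pairs. The authors deposited 1 table of CPM for 12208 genes, with 1 column for each of the 4 libraries, each summing to 1000000. The tools named in the submitters' processing notes include edgeR 3.30.0. Aligner, counter, build and use of strand: not given in the sources used here. Hence reads of Bmp4 and Bmpr1a cannot be told apart from those of antisense models that share 89 and 290 exonic bases with them. Smad5 shares 100 bases with a small model on its own strand.

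The table holds 0 zeros: its lowest values are 9 to 12 reads, so genes near silence in any library are not analysed here. 100% of values were whole multiples of 1 read within 0.01 of a read, which gave the reads per library. Symbols, positions and the longest transcript came from GENCODE M21 (12205 of 12208 identifiers matched, versions ignored).

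The 12160 genes averaging 1 CPM or more were fitted in limma 3.58.1 (R 4.3.3) on log2(CPM + 1) with terms for time and treatment, trended empirical Bayes, two-sided, Benjamini-Hochberg 0.05. limma estimated infinite prior degrees of freedom. "Fell" and "rose" are used only of genes past this fit or another limma fit named there. Ratios at 1 time are ratios of CPM with no pseudocount and have no test, since each group is 1 library. The labels do not say whether cultures were separate, so p-values measure only the spread between these libraries. The length trend was a lowess (span 0.3) of each library's log2 value, minus the gene's mean, on log transcript length.

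Members and lists were chosen with earlier results of these data known. All members are named, with every pathway gene past the fit, up to 3 genes with the largest mean fold from each class in which none passed, and the 5 nearest profiles of Bmp4 and Id1 (mean CPM of at least 10). Bmper, Fst, Grem1, Id4, Msx1, Msx2 and Nfkb2 were named outside this rule, after their values were seen. Alternatives were pseudocounts of 0.25 and 5, no filter, a mean CPM of at least 5, median-of-ratios rescaling, length-trend removal, no time term, no trend, a robust prior, each library left out and, for the 2-fold rule, 1.5-fold. limma voom on the recovered reads and a fixed prior were added after seeing the data. Sequences came from RefSeq (GRCm38.p6).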

Additional observations from a re-analysis of the deposited data

Results flagged for a closer look

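Smad5, a receptor-activated SMAD gene, lay on opposite sides of control at the 2 times beyond counting error: 1.17 of control at 24 h and 0.849 at 48 h. With 1 library per group the difference was not tested. With the length trend removed the log2 ratios were 0.22 and 0.05.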

How the results depend on the processing

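Bmp4 was the 1 member called in the additive limma fit and in all 11 alternatives that used every library, with log2 folds from -1.12 to -1.03 and adjusted p-values from 2.57e-08 to 0.0447, while 0 of the other 9 members passed in any of these. Leaving out 1 library at a time gave 0 to 5 called members, all lower. Those fits have no time term and assume that the lone library of a group varies like the others. At 48 h, 2 members (Bmp4 and Bmpr2) were 1.5-fold lower, where 8.68% of tested genes were, against 1 at 2-fold. Of the other pathway genes 8 were called; 2 were called with median-of-ratios rescaling, 1 with no time term and 1 with 9.86 prior degrees of freedom, and 1 to 22 with 1 library left out. The cause was not tested. The largest count came from the fit without the treated 24 h library, which also called the most genes among all those tested. Some pathway genes called without the treated 24 h or the treated 48 h library were higher, not lower. Among them was Grem1, with limma log2 folds of 0.48 and 0.43 in those fits. Over all tested genes 355 were called higher and 276 lower, 96 and 84 with rescaling, 203 and 222 with the length trend removed, 20 and 11 with no time term and 39 and 25 with 9.86 prior degrees of freedom. The edgeR test on recovered reads was not run. The time term compares treated with control within each time; the labels give no replicate numbers for any other pairing. The 9 to 12 read minimum limits what can be said of low genes such as Nog.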
